A study of Mus musculus with 6 samples.

Results

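The genes described here are the 10 mouse genes Hamp, Hamp2, Slc40a1, Trf, Tfrc, Tfr2, Hfe, Bmp6, Fth1 and Ftl1, which make hepcidin, carry, sense, store or export iron. They were chosen by name and taken by symbol from the 20140 genes of a count table of whole liver, and each symbol matched 1 row. Hamp and Hamp2 were also selected on their counts, which were low in the livers of tumor-bearing mice, so their values are given as a description and without a test. The other 8 genes were tested.

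Hepcidin is a peptide hormone that hepatocytes secrete. It binds the iron exporter ferroportin on macrophages, hepatocytes and gut cells and causes its degradation, so that less iron enters the blood. Its transcription in hepatocytes is driven by bone morphogenetic proteins (BMP) from the endothelium, which act through SMAD factors when iron is plentiful, and by interleukin-6 (IL-6), which acts through STAT3 in inflammation, and it is restrained by erythroferrone from erythroid precursors and by the protease matriptase-2.

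Livers were collected on day 21 from 3 groups of mice with 2 livers each, and poly(A) RNA of the whole tissue was sequenced. The control mice received PBS and are called sham here, after the names of their libraries. The other mice received CT26 cells, a mouse colorectal carcinoma line, and are labeled intra-C and intra-S. The labels do not spell these names out, and the study's text was used to read them as orthotopic growth in the cecum, with the liver in the premetastatic niche (PMN) stage, and as injection into the spleen, with liver metastasis. The labels give neither strain, sex nor age. By the study's methods its tumor models used BALB/c or C57BL/6 J mice of 6 to 10 weeks, and a serum assay of its day 21 CT26 groups used BALB/c. Route of injection, organ of growth and stage change together between intra-C and intra-S and cannot be told apart, and tumor cells in an intra-S liver have a mouse genome whose transcripts are counted with those of the host. In RNA from whole tissue, fewer cells of a type and less RNA per cell cannot be told apart.

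Each library held 32838321 to 43368309 counts, so that 3 counts, the floor used for a count of 0, correspond to 0.0679 to 0.0928 CPM. CPM are counts scaled to a common library total after normalization with trimmed means of M values (TMM). TPM are the authors' values per gene length, scaled to a common total without TMM. The hepatocyte markers were present in every liver, with Alb at 84337 to 156536 CPM and all 10 of 10 markers at 1 CPM or more. The livers of a group differed from each other by more than counting noise, least for sham (chi-square per degree of freedom 24.8) and most for intra-S (337). Scaling by library size alone, without TMM, shifted the median log2 difference of all genes to -0.25 for intra-C and -0.23 for intra-S against sham, from 0.01 and 0.04. Every call below rests on both sham livers: with either of them left out, edgeR's quasi-likelihood test called 0 genes in both comparisons with sham, while 2238 to 2777 genes had an unadjusted p under 0.05.

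The hepcidin genes lie beside each other on chromosome 7 (mm10, GENCODE M21), Hamp at chr7:30942368-30944032 and Hamp2 at chr7:30922372-30924681, both on the minus strand and 17686 bases apart. Their starts are printed because the 2 genes differed in how low they were in the intra-C livers. The windows hold the 250 bases before the RefSeq start site (GRCm38.p6, minus strand, 5′ to 3′), chr7:30944030-30944279 for Hamp and chr7:30924182-30924431 for Hamp2. Of 3 Hamp2 transcripts in GENCODE, 2 start at the RefSeq site, and 1 starts 500 bases upstream of it and holds the window in an intron. The GENCODE start of Hamp lies 3 bases upstream of the RefSeq site. Capitals mark the BMP response element core GGCGCC, or the bases aligned to it, and a match to the STAT motif TTCNNNGAA.
Hamp: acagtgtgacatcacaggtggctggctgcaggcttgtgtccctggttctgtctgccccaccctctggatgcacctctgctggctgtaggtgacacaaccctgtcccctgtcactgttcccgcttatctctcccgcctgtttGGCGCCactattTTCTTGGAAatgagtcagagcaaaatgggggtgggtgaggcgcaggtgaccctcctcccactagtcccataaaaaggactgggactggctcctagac
Hamp2: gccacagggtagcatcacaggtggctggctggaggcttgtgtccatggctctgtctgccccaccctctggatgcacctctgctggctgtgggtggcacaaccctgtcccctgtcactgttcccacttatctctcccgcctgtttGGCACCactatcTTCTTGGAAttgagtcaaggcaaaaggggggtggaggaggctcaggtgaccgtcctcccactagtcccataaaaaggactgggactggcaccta
In a global alignment, 227 of 247 aligned positions of the windows were identical (91.9%). Hamp has the GGCGCC motif 109 bases before its start. Hamp2 has GGCACC at the aligned place, 106 bases before its start, a G4A change counted from the 5′ end of the motif with the Hamp base first. The STAT motif lies 97 bases before the start of Hamp and 94 bases before that of Hamp2. Both motifs read the same on either strand and do not overlap here. Among 32851 RefSeq promoter windows of 250 bases, 9.59% held GGCGCC and 7.02% held TTCNNNGAA. CACGTG (6.02% of the promoters, the same on both strands), TGACNNNGC (10.2%, either strand) and TATAAA (12.4%, either strand) were found in neither window. Promoters of 8 of the 10 genes were matched by symbol in the RefSeq table. Slc40a1 and Trf were not matched. Of the other 6 genes, Tfrc alone had GGCGCC, 89 bases before the first of its start sites, and none had TTCNNNGAA. A match is a description of letters, and the absence of a match says only that these letters are not in the window. Any link of these motifs to the levels of Hamp and Hamp2 was not tested.

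Hamp was abundant in the sham livers and nearly absent from the intra-S livers, and the intra-C livers lay between. It had 21795 and 23677 counts in sham, 2564 and 14984 in intra-C, and 15 and 40 in intra-S. On the CPM scale these were 537 and 536, 65.3 and 463, and 0.437 and 0.981. The groups did not overlap, but the intra-C livers differed from each other more than the second of them differed from sham. The mean of the sham livers was 8.22 and 1.16 times the level of intra-C liver 1 and 2, and 1226 and 547 times that of intra-S liver 1 and 2. Hamp was the 199th and 201st gene by counts in sham, the 1776th and 212th in intra-C, and the 14170th and 12835th in intra-S. The fitted log2 difference from sham was -1.02 for intra-C and -9.54 for intra-S. Without intra-C liver 1 the first of these was -0.21, and without intra-C liver 2 it was -3.01. With limma on log2(TPM + 1), which changes the scale and averages logs, it was -1.81.

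Hamp2, the other hepcidin gene of the mouse, was low in all 4 livers of mice given CT26 cells. It had 20397 and 14600 counts in sham, 96 and 224 in intra-C, and 0 and 14 in intra-S. In CPM they were 502 and 330.4 against 2.44 and 6.93, and 0 and 0.343. No liver of one group reached the range of another. The sham mean was 170.4 and 60.1 times the level of the intra-C livers, at least 4758 times that of intra-S liver 1, taking 3 counts in that library as the floor, and 1213 times that of intra-S liver 2. The fitted log2 difference from sham was -6.48 for intra-C and -11.14 for intra-S.

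Per transcript length, the hepcidin genes were of like abundance in the sham livers, at 2969 and 2956 TPM for Hamp and 2588 and 1697 TPM for Hamp2. In the intra-C livers the TPM of Hamp was 306 and 2322 and that of Hamp2 10.7 and 32.3. Hamp2 made up 48.3% (exact 95% binomial interval 47.9 to 48.8) and 38.1% (37.7 to 38.6) of the hepcidin counts in the sham livers. In the intra-C livers this share was 3.61% (2.93 to 4.39) and 1.47% (1.29 to 1.68), below both sham livers. In the intra-S livers it rested on 15 and 54 counts and was 0% (0 to 21.8) and 25.9% (15 to 39.7). The intervals cover counting error only. The 2 genes are near copies, with 388 of 410 aligned transcript positions identical (94.6%), and 60 stretches of 50 bases occur in both, 16.6% of those of Hamp and 11.2% of those of Hamp2. No stretch of 100 bases does. Reads that fit both genes equally were not counted, since the authors kept uniquely aligned reads.

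**Figure D1:**
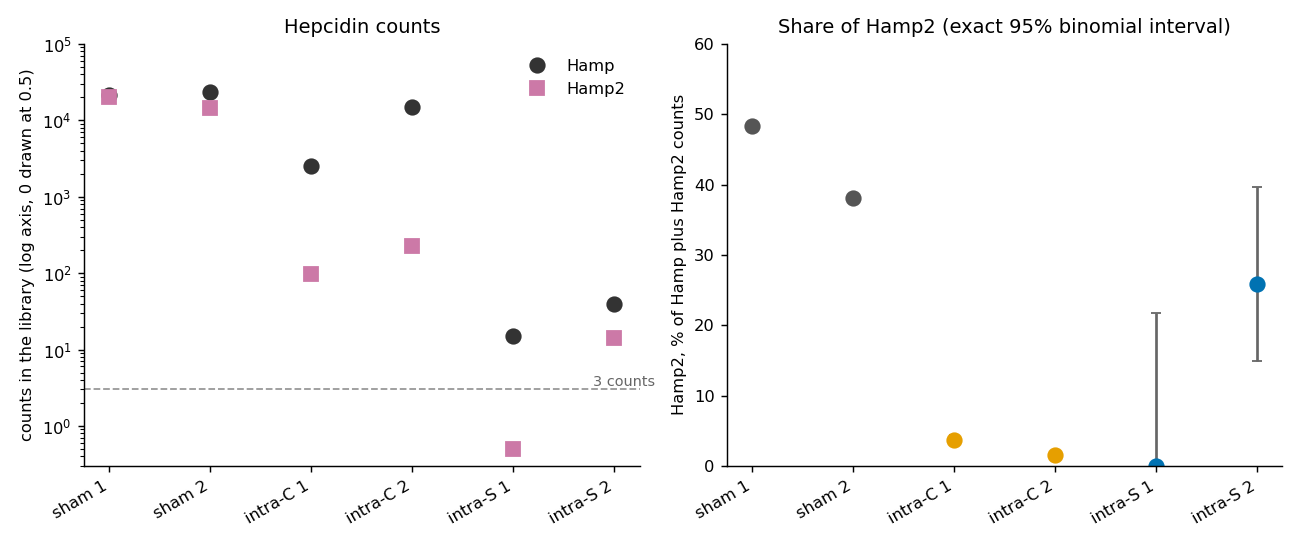
Left, counts of Hamp (circles) and Hamp2 (squares) in each library on a log axis, with 0 drawn at 0.5 and a dashed line at 3 counts; right, the share of Hamp2 in the hepcidin counts of each liver with its exact 95% binomial interval. Hamp2 is low in all intra-C and intra-S livers, whereas Hamp of intra-C liver 2 stays near the sham livers.

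Markers of cell types were compared between the groups. Over all genes, 4.92% were called higher and 2.38% lower in intra-C against sham, and 6.78% and 3.95% in intra-S. The summed CPM of the 11 erythroid markers listed was 229.5 and 411 in sham, 409.6 and 259 in intra-C, and 1750.1 and 1206 in intra-S, where 9 of 11 rose against sham, beside 0 of 11 called in intra-C. The summed acute phase genes went from 11266 and 11657 CPM in sham to 106479 and 111738 in intra-C and 59556 and 89110.2 in intra-S, with 15 of 16 genes called higher in each comparison. The summed hepatocyte markers, most of which is Alb, were 124942 and 118538 CPM in sham, 158988 and 116941 in intra-C, and 189463 and 143022 in intra-S. Of these 10 markers, 5 lay above both sham livers and 4 below them in both intra-C livers, and 5 above and 3 below in both intra-S livers. Over all genes, 68.4% and 60.4% lay apart from sham in either direction. Apoa2 fell in both comparisons (log2 difference -1.34, edgeR adjusted p = 0.0371, and -1.17, adjusted p = 0.0421), and 1 other marker was called higher in each, Apob in intra-C and Serpina1a in intra-S. Hamp2 is also known from the pancreas, and exocrine pancreas genes were therefore looked at after the data were seen. Only 4 of 14 such genes were listed, with Cela1 at 17.3 and 26.2 CPM in sham, 4.07 and 5.5 in intra-C, and 20.5 and 5.15 in intra-S. Ctrl, at 0.197 and 0.0453 CPM in sham, was at 0.255 and 0.618 in intra-C and 0.292 and 0.172 in intra-S, and Amy2a5, at 0.123 and 0.0226 CPM, at 0.509 and 0.0309, and 1.25 and 1.25. None of the 3 was called. The part of these cells in the hepcidin levels was not tested.

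Across the 6 livers the genes whose log2 CPM followed Hamp most closely were Smarcc2 (Pearson's r = 0.999), Ipo8 (0.989), Sec16b (0.987), Eif4ebp2 (0.987) and Arhgap35 (0.987), out of 9279 genes with a mean of at least 5 CPM. These are descriptions over 6 livers that share their groups. Hamp2 was the 318th with r = 0.893. The amplitude of the 5 genes was far smaller than that of Hamp: Smarcc2 ranged from 28.4 CPM in intra-S liver 1 to 54.8 CPM in intra-C liver 2.

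Of the 8 genes tested, 1 passed in each comparison with sham, Ftl1 lower in intra-C and Trf higher in intra-S. Over all 16370 genes tested, 7.3% were called in intra-C against sham and 10.7% in intra-S against sham (edgeR's quasi-likelihood test, Benjamini-Hochberg adjusted p under 0.05 over all genes). The median log2 difference of the 8 genes was 0.21 in intra-C and 0.36 in intra-S, beside 0.01 and 0.04 over all genes. Before adjustment, p was under 0.05 for 3 and 4 of the 8, beside 27% and 30.2% of all genes. Their livers did not overlap with the sham livers for 6 of 8 genes in each comparison, beside 68.4% and 60.4% of all genes. The comparisons share the sham livers.

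Slc40a1 (chr1:45908068-45926523), which encodes ferroportin, the iron exporter that hepcidin degrades, did not pass in either comparison. It stood at 141 and 165 CPM in sham, 163 and 229 CPM in intra-C, and 419 and 206 CPM in intra-S. Both intra-S livers lay above the sham livers, and intra-S liver 1 stood highest of all 6. The log2 difference from sham was 0.36 (SE 0.37, edgeR adjusted p = 0.578) for intra-C and 1.03 (SE 0.37, adjusted p = 0.124) for intra-S. Without intra-S liver 2 the latter was 1.45, and without intra-S liver 1 it was 0.43. Ferroportin is also made by Kupffer cells, the macrophages of the liver, whose 5 markers summed to 143 and 139 CPM in sham, 684 and 844 in intra-C, and 375 and 790 in intra-S. Clec4f, the marker with the highest mean CPM over the 6 livers, was at 76.8 and 76.7, 265 and 355, and 163 and 317 CPM. The part of these cells was not tested.

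Trf (chr9:103204001-103230444), which encodes transferrin, the iron carrier of plasma made by hepatocytes, was the second gene by counts in every liver. It took 2.58% and 2.86% of the counts of the sham livers, 4.59% and 4.6% in the intra-C livers and 5.63% and 5.72% in the intra-S livers. The levels were 22877 and 25096 CPM, 50637 and 46700.2 CPM, and 63687 and 57852 CPM, and the 3 groups did not overlap. Trf rose in intra-S by 1.34 on the log2 scale (SE 0.24, edgeR adjusted p = 0.0232). In intra-C the log2 difference was 1.02 (SE 0.24) and narrowly missed the threshold (adjusted p = 0.0538). Over the 17 alternatives tried, the adjusted p lay between 1.9e-08 and 0.274 for intra-S, under 0.05 in 11 of them, and between 5.0e-05 and 0.404 for intra-C, under 0.05 in 6. The call in intra-S was lost when either intra-C liver was left out of the joint fit (adjusted p = 0.0698 and 0.0716), when either sham liver was (0.215 and 0.183), and with only the 2 groups compared (0.0918). The annotation also holds a readthrough gene, Gm20425, which shares 63.5% of the exonic bases of Trf. It is not a row of the table.

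Tfrc (chr16:32608920-32632794), transferrin receptor 1, takes up transferrin-bound iron and is most abundant in erythroid precursors. It was at 87.8 and 46.4 CPM in sham, 72.2 and 69.2 CPM in intra-C, and 179 and 108 CPM in intra-S. The intra-C livers fell within the range of sham, and both intra-S livers lay above it. For intra-S the log2 difference was 1.09 (SE 0.37, edgeR adjusted p = 0.11), and for intra-C 0.08 (SE 0.37, adjusted p = 0.92), of which the latter turned negative without TMM (-0.18). DESeq2 gave an adjusted p of 0.044 for intra-S. The erythroid markers given above were also highest in the intra-S livers, with Hbb-bs, the most abundant, at 864 and 672 CPM against 123 and 214 CPM in sham and 223 and 146 CPM in intra-C. The part of erythroid RNA in the level of Tfrc was not tested.

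Tfr2 (chr5:137569840-137587481), the second transferrin receptor, which hepatocytes use to sense transferrin iron, was at 321 and 331 CPM in sham. It was at 495 and 446 CPM in the intra-C livers and 377 and 372 CPM in the intra-S livers. The groups did not overlap, and the replicates lay close together. The log2 difference was 0.53 (SE 0.19, edgeR adjusted p = 0.144) for intra-C and 0.20 (SE 0.19, adjusted p = 0.528) for intra-S, and the latter turned to -0.08 without TMM. In intra-C the call was gained when either intra-S liver was left out (adjusted p = 0.019 and 0.0218), in fits that called 4657 and 4587 genes over all genes in place of 1195, and with only the 2 groups compared (adjusted p = 0.0201). On the TPM scale, Tfr2 was 5.01 and 9.78 times as abundant as Tfrc in sham, 9.37 and 8.81 times in intra-C, and 2.88 and 4.72 times in intra-S, the lowest ratios of the 6.

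**Figure D2:**
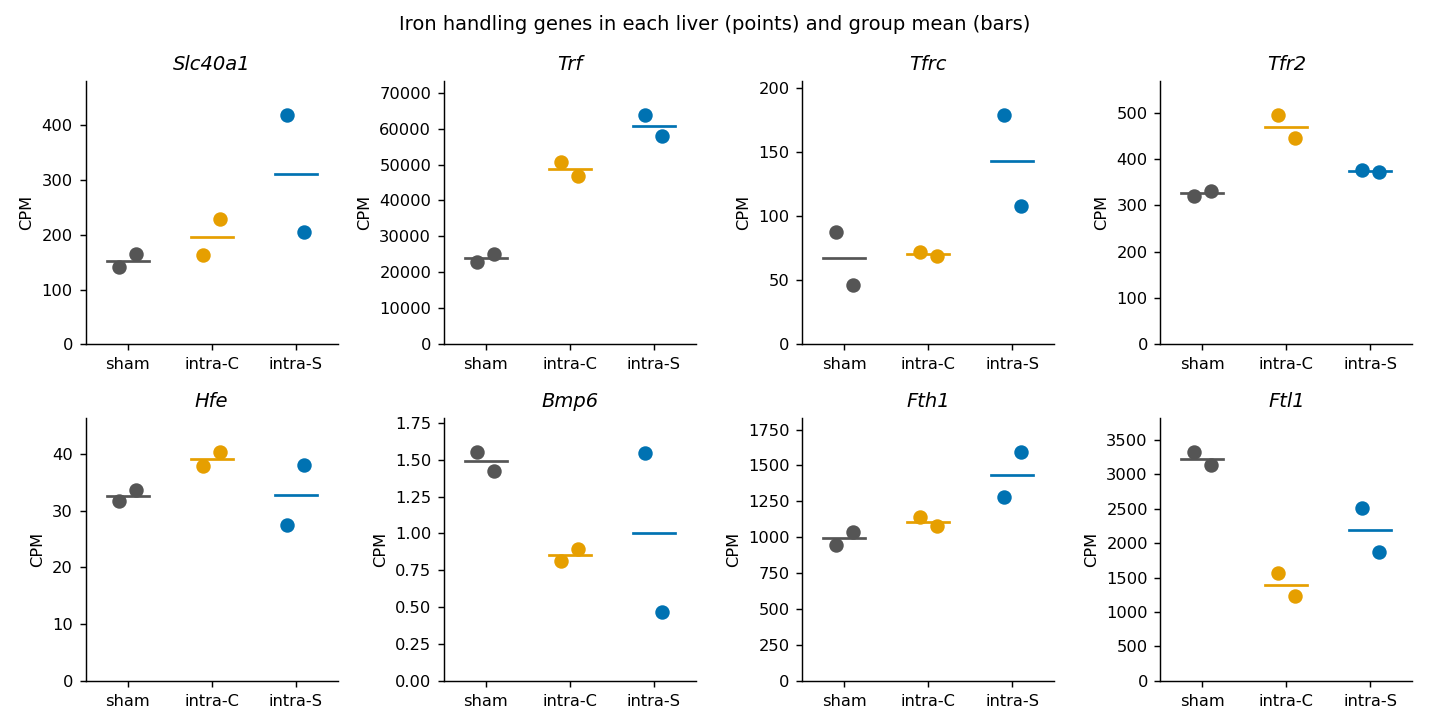
CPM of the 8 genes other than the hepcidins in each liver (points) with the group mean (horizontal bars); every axis starts at 0 and has its own scale. The groups are stacked without overlap for Trf, while for Slc40a1 and Bmp6 intra-S liver 1 lies far from intra-S liver 2.

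Hfe (chr13:23702034-23710854), the gene of hereditary hemochromatosis, whose product acts upstream of hepcidin in hepatocytes, was at 31.6 and 33.7 CPM in sham. The level was 37.8 and 40.3 CPM in intra-C and 27.5 and 38 CPM in intra-S. The intra-S livers lay on either side of the sham livers. The log2 difference was 0.26 (SE 0.22, edgeR adjusted p = 0.485) for intra-C, near 0 (-0.00) without TMM, and 0.00 (SE 0.22, adjusted p = 0.993) for intra-S.

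Bmp6 (chr13:38345107-38500302), the iron-regulated BMP ligand made by sinusoidal endothelial cells, was of low abundance in whole liver. It was at 1.55 and 1.43 CPM in sham, 0.815 and 0.897 CPM in intra-C, and 1.55 and 0.466 CPM in intra-S. The intra-C livers were below the sham livers, and the intra-S livers disagreed with each other. The log2 difference was -0.80 (SE 0.64, edgeR adjusted p = 0.468) for intra-C and -0.57 (SE 0.63, adjusted p = 0.581) for intra-S. The summed CPM of 10 markers of the sinusoidal endothelium, its source, was 129 and 143 in sham, 331 and 371 in intra-C, and 452 and 301 in intra-S. All 10 lay above both sham livers in the intra-C and in the intra-S livers, beside 68.4% and 60.4% of all genes apart in either direction. In each comparison 5 of 10 were called higher, beside 4.92% and 6.78% of all genes. Clec4g, the marker with the highest mean CPM over the 6 livers, was at 24.7 and 32.1, 73 and 75.7, and 36.8 and 69.9 CPM. The part of these cells in the level of Bmp6 was not tested. Of the exonic bases of Bmp6, 5.74% are shared with Txndc5 on the opposite strand, and the sources do not say whether counting used strand.

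Of the ferritin subunits, Ftl1 was called in intra-C and Fth1 in neither comparison. Ftl1 (chr7:45457944-45459884), the light chain of the iron storage protein ferritin, was at 3324 and 3131 CPM in sham, 1564 and 1234 CPM in intra-C, and 2515 and 1872 CPM in intra-S. All 4 livers of mice given CT26 cells lay below the sham livers, the intra-C livers lowest. In intra-C Ftl1 fell by 1.21 on the log2 scale (SE 0.25, edgeR adjusted p = 0.0429), with adjusted p values from 2.8e-04 to 0.284 and a call in 12 of the 17 alternatives. The call was lost without either intra-C liver (adjusted p = 0.19 and 0.266) or either sham liver (0.284 and 0.28). In intra-S the difference was -0.56 (SE 0.25, adjusted p = 0.194), and without intra-S liver 1 it was -0.78. Of the 50-base stretches of Ftl1, 50.9% occur in other genes, and of the 150-base stretches 23.9% do. The pseudogene Ftl1-ps1 shares the most of them. Reads that fit such genes equally were not counted, so that the level of Ftl1 rests on its other stretches.

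Fth1 (chr19:9980598-9985098), the heavy chain with the ferroxidase activity of ferritin, was at 949 and 1038 CPM in sham, 1138 and 1079 CPM in intra-C, and 1277 and 1593 CPM in intra-S. The groups did not overlap, in the order sham, intra-C, intra-S. The log2 difference was 0.16 (SE 0.22, edgeR adjusted p = 0.685) for intra-C, -0.10 without TMM, and 0.53 (SE 0.22, adjusted p = 0.161) for intra-S. Without intra-S liver 1 the latter was 0.69. The ratio of Fth1 to Ftl1 within a liver does not depend on the scaling. On the TPM scale it was 0.183 and 0.213 in sham, 0.467 and 0.562 in intra-C, and 0.326 and 0.547 in intra-S. Each liver of mice given CT26 cells had a higher ratio than both sham livers, and the other groups overlapped. No test of the ratio was run. With 2 livers a group, a two-sided exact permutation test can give no p below 0.333.

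**Figure D3:**
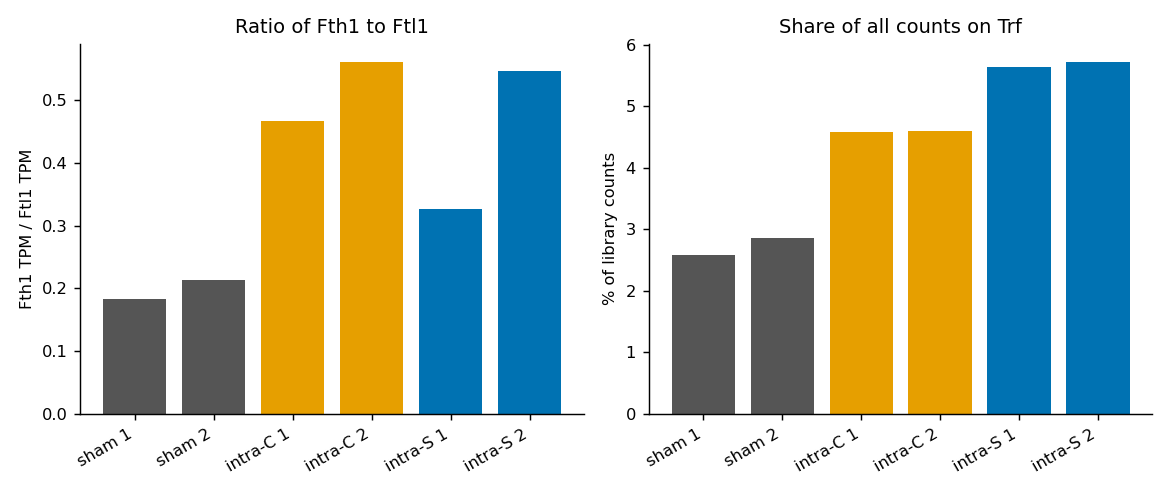
Left, TPM of Fth1 divided by TPM of Ftl1 in each liver; right, the percentage of library counts on Trf; bars start at 0 and each is 1 liver. The ratio is 0.183 and 0.213 in the sham livers and 0.326 or more in the others, and the share of Trf goes from 2.58% to 5.72%.

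Between intra-S and intra-C, none of the 8 genes passed, and of all 16370 genes edgeR called 0 (0%), with 2193 at an unadjusted p under 0.05 (13.4%). Of the 8 genes, Tfrc (log2 difference 1.02, SE 0.37, unadjusted p = 0.0315, adjusted p = 0.347) and Ftl1 (0.65, adjusted p = 0.358) were under 0.05 before adjustment, both higher in intra-S. DESeq2 called 240 genes higher and 287 lower over all genes, none of the 8 among them. Hamp and Hamp2 were lower in both intra-S livers than in both intra-C livers, by fitted log2 differences of -8.52 and -4.66. The intra-S livers lay apart from the intra-C livers for 5 of the 8 genes, Trf, Tfrc, Tfr2, Fth1 and Ftl1, beside 43.3% of all genes without overlap. Without intra-S liver 2, edgeR called 2884 of 17429 genes over all genes and 3 of the 8, Slc40a1 (1.09, adjusted p = 0.0192), Tfrc (1.33, adjusted p = 0.0351) and Ftl1 (0.84, adjusted p = 0.0182), each higher in the remaining intra-S liver.

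Other genes of iron metabolism were listed by role, 79 symbols of which 76 were in the table and 75 were tested. Against sham, 16 were called higher and 3 lower in intra-C, beside 4.92% higher and 2.38% lower over all genes, and 15 higher and 5 lower in intra-S, beside 6.78% and 3.95%. Their median log2 difference was 0.20 and 0.33, beside 0.01 and 0.04. Between intra-S and intra-C, edgeR called 0 of the 75, with 12 at an unadjusted p under 0.05, and DESeq2 called 1 higher and 5 lower. With 1 intra-C liver left out, 5 or 4 of the 16 genes called higher in intra-C were still called and none of the 3 called lower, and 9 or 8 of the 15 called higher and 1 or 0 of the 5 called lower in intra-S. With only the intra-S and sham livers in the fit, 8 of these 15 and none of the 5, Tmprss6, Steap3, Aco1, Nfs1 and Glrx5, were still called. The 8, Inhbb, Cp, Hpx, Hp, Cd163, Lcn2, Ltf and Slc11a1, were also called without either intra-C liver. In intra-C, Hpx, Hp, Cd163 and Lcn2 were called without either intra-C liver, and Ltf only without liver 1. With 1 sham liver left out none was, with 22 to 24 of the 75 at an unadjusted p under 0.05.

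Of the BMP ligands, receptors and modulators, 1 of 16 tested was higher in intra-C, and 1 was higher and 1 lower in intra-S. Inhbb, which encodes the subunit of activin B, was at 0.148 and 0.0679 CPM in sham, 6.19 and 11.1 CPM in intra-C, and 50.2 and 17.5 CPM in intra-S. It rose by 6.30 (SE 0.77, edgeR adjusted p = 0.0118) and 8.27 (SE 0.80, adjusted p = 0.00579) on the log2 scale. Tmprss6, which encodes matriptase-2, was at 372 and 388 CPM in sham, 349 and 303 CPM in intra-C, and 204 and 197 CPM in intra-S. It fell by 0.92 on the log2 scale in intra-S (SE 0.20, adjusted p = 0.0359). Chosen after their values were seen, Bmp2, the other endothelial ligand, was at 7.83 and 8.6 CPM in sham, 15.8 and 14.4 CPM in intra-C and 12.8 and 13.7 CPM in intra-S, just short of the threshold in intra-C (log2 difference 0.87, adjusted p = 0.0533). Hjv, the BMP co-receptor hemojuvelin, was at 36.6 and 38, 16.5 and 24.2, and 87.4 and 21 CPM, and was not called. Erfe, which encodes erythroferrone, was between 0 and 0.875 CPM in the 6 livers, the highest in intra-S liver 1.

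None of the 12 SMAD mediators and BMP target genes was called in either comparison, beside 7.3% and 10.7% of all genes. In each, 2 of 12 had an unadjusted p under 0.05, beside 27% and 30.2% of all genes. The median log2 difference of the 12 was 0.16 in intra-C and 0.36 in intra-S. Smad9, a SMAD mediator named after its values were seen, was at 3.97 and 6.2 CPM in sham, 2.42 and 0.588 CPM in intra-C, and 1.28 and 0.907 CPM in intra-S. Its groups did not overlap with sham, and its log2 differences were -1.75 (SE 0.66, edgeR adjusted p = 0.154) and -2.21 (SE 0.68, adjusted p = 0.0857). Id2, the most abundant of them on the TPM scale, was at 24.2 and 49 CPM in sham, 18.1 and 34.5 CPM in intra-C, and 35.9 and 32.6 CPM in intra-S, so that the groups overlapped. Id1 and Smad7, target genes by which hepatic BMP signaling is often read and picked here after their values were seen, overlapped too. Id1 was at 3.89 and 3.05, 2.39 and 4.89, and 3.29 and 5.05 CPM. Smad7 was at 8.03 and 4.91, 5.29 and 9.62, and 15.1 and 3.78 CPM. Of the other genes of this list, Smad1, Smad4, Smad5 and Smad6 lay above both sham livers in intra-C, and Smad1, Smad5, Id3 and Id4 in intra-S. Bambi lay below them in intra-S, and the remaining groups overlapped with sham. In each comparison 9 of the 12 differences were positive. Over all genes, 68.4% and 60.4% did not overlap with sham.

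Of the 9 genes of IL-6 signaling to hepcidin, 4 were higher in intra-C and 3 in intra-S, and none was lower. Stat3 was at 66.9 and 62.3 CPM in sham, 229 and 226 CPM in intra-C, and 134 and 130.2 CPM in intra-S, a rise of 1.82 (SE 0.19, edgeR adjusted p = 0.00785) and 1.03 (SE 0.18, adjusted p = 0.0236) on the log2 scale, the latter not called without TMM, with only the 2 groups compared or without either intra-C liver. Socs3, the feedback inhibitor of this pathway, was at 1.4 and 2.22 CPM in sham, 36.1 and 24.1 CPM in intra-C, and 9.85 and 31 CPM in intra-S. These are log2 differences of 4.05 (adjusted p = 0.0195) and 3.49 (adjusted p = 0.0213). In intra-S the difference was 2.44 without liver 2 and 4.09 without liver 1, and the call was lost with only the 2 groups compared and without either intra-C liver. Il1b rose in both comparisons (3.78 and 3.47), from 0.32 and 0.86 CPM in sham to 11.9 and 4.45 CPM in intra-C and 8.31 and 4.93 CPM in intra-S. Both calls of Il1b were lost without either intra-C liver, and that in intra-S also with only the 2 groups compared. Il6st, the signal-transducing receptor chain gp130, rose in intra-C (2.24). Il6 itself, named after its values were seen, had 2 and 0 counts in sham, 10 and 2 in intra-C, and 48 and 21 in intra-S. It was not called, with log2 differences of 2.60 (SE 1.41, edgeR adjusted p = 0.288) and 5.14 (SE 1.35, adjusted p = 0.0601). Of 4 other transcription factors of hepcidin, Cebpa fell by 1.70 on the log2 scale in intra-C (SE 0.36, adjusted p = 0.0423), from 168 and 271 CPM in sham to 57.7 and 77.7 CPM, and was at 172 and 106 CPM in intra-S.

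**Figure D4:**
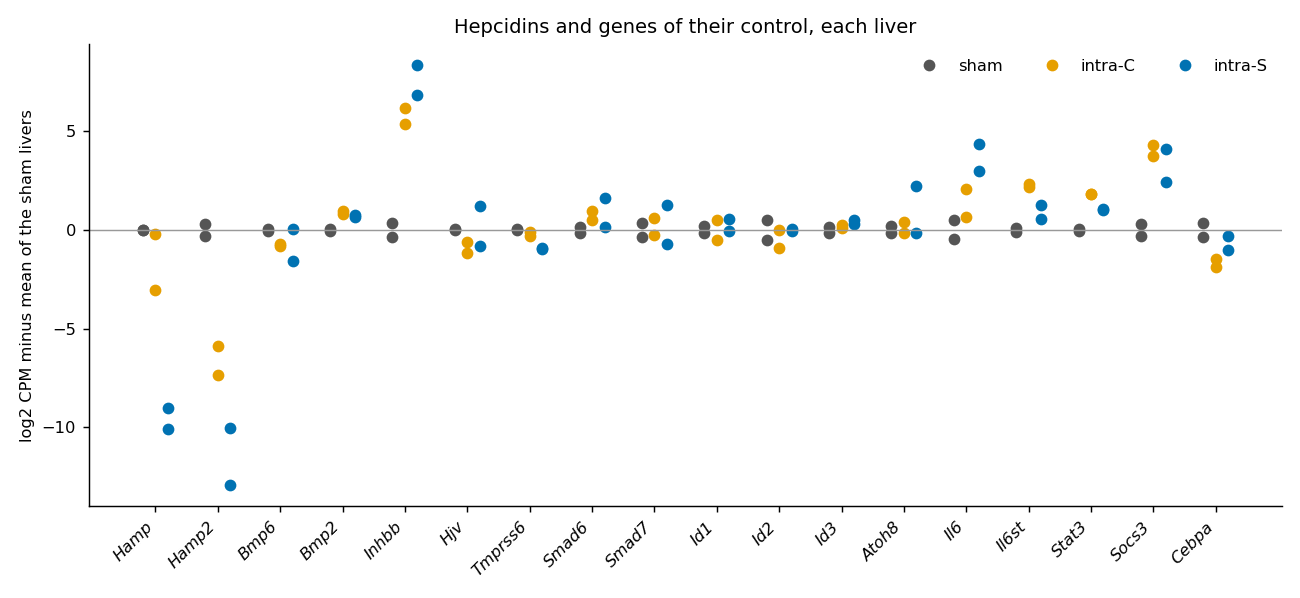
Log2 CPM (prior count 2) of the hepcidins and of genes that act on them in each liver, minus the mean of the sham livers; points are livers, colored by group. Hamp goes down to -10.10, and the lowest point of Hamp2 is a liver with 0 counts whose place is set by the prior count, whereas Id1, Id2 and Id3 stay within 1 of the sham mean, Atoh8, Smad6 and Smad7 reach 2.22, 1.59 and 1.26 in intra-S liver 1, and Inhbb, Stat3 and Socs3 lie above the sham livers.

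Of 8 genes of iron uptake and reduction, 4 were higher in intra-C, and 3 were higher and 1 lower in intra-S. Slc39a14, which takes up iron not bound to transferrin, was at 164 and 145 CPM in sham, 551 and 550.0 CPM in intra-C, and 482 and 343 CPM in intra-S (log2 differences 1.83, edgeR adjusted p = 0.0149, and 1.42, adjusted p = 0.0208). Slc11a2, the divalent metal transporter, rose by 1.76 and 1.55 on the log2 scale. Its differences stayed at 1.31 or more and 1.08 or more under the alternatives, but both calls were lost without TMM, with limma on TPM and with either sham or either intra-C liver left out, and that in intra-S also with only the 2 groups compared. Scara5, a ferritin receptor, was at 0 and 0.407 CPM in sham and at 16.6 to 39.5 CPM in the other 4 livers. Steap4, a metalloreductase, rose in intra-C to 1028 and 2124 CPM from 103 and 96.3 CPM in sham, but in intra-S was at 129 and 744 CPM, and its call was lost without TMM. Steap3, the endosomal reductase of the transferrin cycle, fell by 1.08 in intra-S. Cp, the plasma ferroxidase ceruloplasmin, was 1 of 2 iron oxidases tested and rose by 2.11 in both comparisons, from 892 and 1050.2 CPM in sham to 4022 to 4349 CPM in the other livers.

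Of 8 genes of heme and hemoglobin recycling, 3 were higher in intra-C and 4 in intra-S, and none was lower. Hpx, the plasma heme carrier hemopexin, was at 3047 and 2960.1 CPM in sham and at 22248 to 25918 CPM in the other livers. Hp, the hemoglobin carrier haptoglobin, was at 2279.8 and 2343 CPM in sham and at 17978 to 23978 CPM in the others. Both are acute phase proteins, and 15 of 16 genes of the acute phase list, which does not hold them, were also higher in each comparison. Cd163, the macrophage receptor of haptoglobin with hemoglobin, went from 13.3 and 10.1 CPM to 84.5 and 91.3 CPM in intra-C and 60.3 and 72.3 CPM in intra-S, beside the higher Kupffer cell markers. Hmox1, the heme oxygenase that frees iron from heme, was at 11.9 and 11.7 CPM in sham, 72 and 56.3 CPM in intra-C, and 189 and 54.6 CPM in intra-S. It rose by 3.36 in intra-S (SE 0.57, edgeR adjusted p = 0.021) and missed the threshold in intra-C (2.44, SE 0.55, adjusted p = 0.0503). In intra-S the difference was 2.21 without liver 1 and 4.0 without liver 2, and the call was lost with only the 2 groups compared and without either intra-C liver.

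Inside the cell, Aco1, whose product serves as iron regulatory protein 1, fell by 1.44 on the log2 scale in intra-S (SE 0.21, edgeR adjusted p = 0.015), from 229 and 206 CPM in sham to 73.9 and 86.6 CPM, and was at 146 and 173 CPM in intra-C. It was 1 of 3 genes of cellular iron sensing. Among 7 genes of mitochondrial iron and iron-sulfur clusters, 2 were lower in each comparison and none was higher, with medians of -0.60 and -0.44. Glrx5, a glutaredoxin of iron-sulfur cluster assembly, was at 72.4 and 62 CPM in sham, 26.4 and 24.7 CPM in intra-C, and 38.6 and 35.5 CPM in intra-S, and fell in both comparisons. Slc25a37, mitoferrin 1, fell by 0.93 in intra-C, and Nfs1, the cysteine desulfurase of cluster assembly, fell by 0.81 in intra-S. None of 3 genes of ferritin turnover and iron chaperones was called, with 0 and 1 of 3 at an unadjusted p under 0.05. Pcbp1, the iron chaperone to ferritin, was at 105 and 107 CPM in sham, 90.4 and 98.6 CPM in intra-C, and 126 and 117 CPM in intra-S.

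All 3 genes of iron sequestration in innate immunity rose in both comparisons. Lcn2, which binds bacterial siderophores, was at 7.76 and 7.65 CPM in sham, 1508 and 2819 CPM in intra-C, and 1628 and 3399.8 CPM in intra-S, log2 differences of 8.13 (SE 0.59, edgeR adjusted p = 0.00543) and 8.35 (SE 0.59, adjusted p = 0.00446). Ltf, lactoferrin of neutrophil granules, was at 0.0246 and 0.226 CPM in sham and at 16.3 to 67.5 CPM in the other livers. Slc11a1, the metal transporter of phagosomes, was at 3.25 and 2.85 CPM in sham and at 13.8 to 18.1 CPM in the others. The 9 neutrophil markers, all 9 higher in each comparison, summed to 2.49 and 3.44 CPM in sham, 262 and 567 CPM in intra-C, and 1002 and 392 CPM in intra-S, with S100a9 the most abundant. The 7 monocyte and macrophage markers, 5 of 7 called higher in each comparison, summed to 54.8 and 61 CPM in sham, 259.9 and 379 CPM in intra-C, and 266 and 378 CPM in intra-S. The part of these cells in Lcn2, Ltf and Slc11a1 was not tested.

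**Figure D5:**
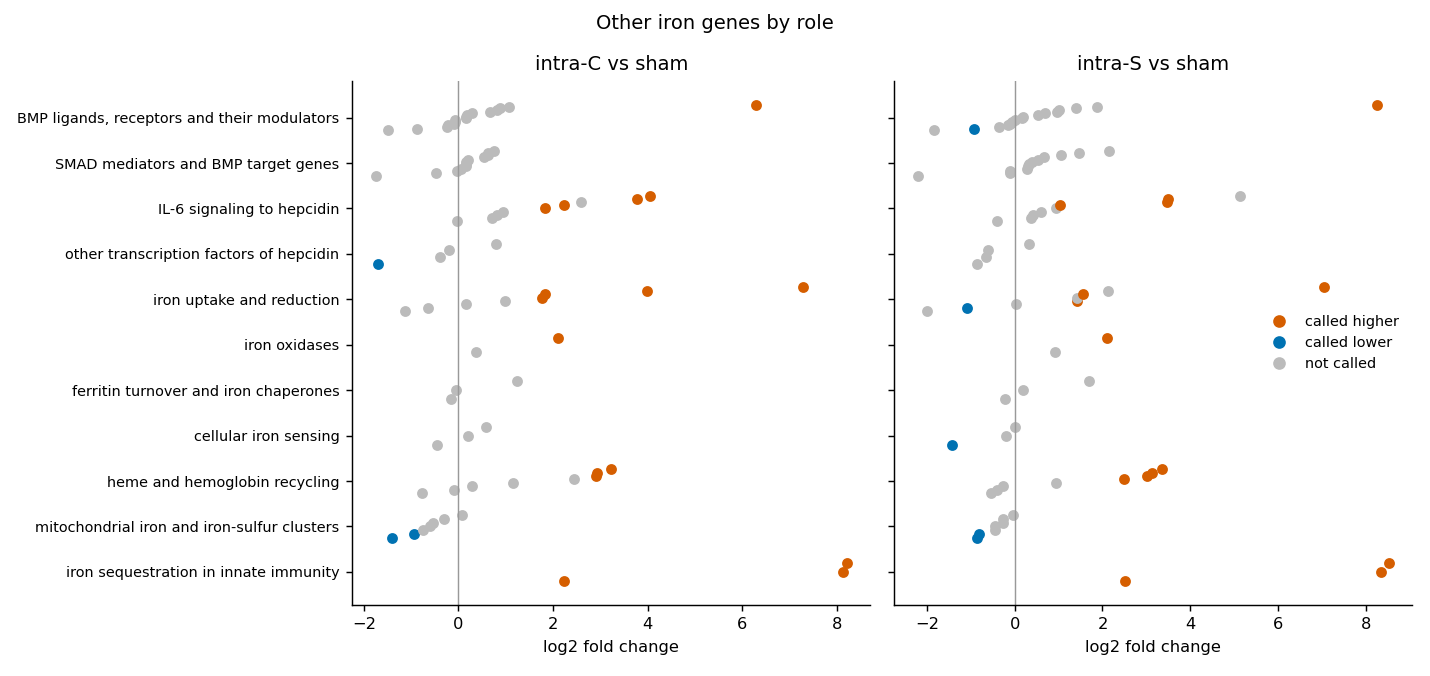
Log2 fold changes against sham of the iron genes by role, intra-C on the left and intra-S on the right; each point is a gene, orange where it was called higher, blue where called lower and gray where not called. No gene of the SMAD row is called, beside 7.3% of all genes in intra-C and 10.7% in intra-S. All 3 of the innate immunity row are called higher in both.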

How the data were processed

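Poly(A) RNA of 6 whole livers was sequenced, 2 for each of sham, intra-C and intra-S. Per the submitters' processing notes and the study's methods, the authors aligned reads to mm10 with HISAT2 2.1.0 and counted uniquely aligned exonic reads with featureCounts (Subread 2.0.6). The annotation and the use of strand are not given in the sources used here. The authors deposited raw counts per gene and TPM values, which they computed from the counts and gene lengths.

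The remaining steps used R 4.3.3 and Python 3.11.15. Genes were tested with the quasi-likelihood test of edgeR 4.0.16 on the counts of all 6 livers in 1 fit of 3 groups, with TMM and the filterByExpr filter (minimum count 10), which left 16370 of 20140 genes, all 10 genes described among them. A gene was called at a Benjamini-Hochberg adjusted p under 0.05 over all genes tested. The SE given is the size of the log2 difference divided by the square root of the F statistic of the test. P-values rest on the spread between the 2 livers of a group, pooled over the 3 groups of the fit and moderated across genes. The script was tested on simulated data. Alternatives were DESeq2 1.42.0, limma 3.58.1 on log2(TPM + 1) or log2(TPM + 0.1) of genes with 0.5 TPM or more in 2 livers or of all genes, other filters and scalings, a robust spread, only the 2 groups compared, a replicate block, and leaving out each liver, where a lone liver is assumed to vary like the other groups. The genes described, the iron list and the marker lists were chosen with earlier results of these data known. Named of the iron list were all genes called against sham and, in roles with no call, the gene with the highest mean TPM, and as genes most like Hamp the 5 with the highest correlation. Exocrine pancreas genes were added after the data were seen. Depth was 32838321 to 43368309 counts a liver. Gene positions are from GENCODE M21 and promoters from RefSeq.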

Additional observations from a re-analysis of the deposited data

Results flagged for a closer look

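Pcbp1, the iron chaperone to ferritin, lay on opposite sides of sham in the 2 tumor groups. Its log2 difference from sham was -0.16 in intra-C, with both livers below both sham livers, and 0.20 in intra-S, with both livers above them. Neither difference was called by edgeR (adjusted p = 0.615 and 0.509), and the direct comparison of intra-S with intra-C gave 0.36 (SE 0.18, adjusted p = 0.436). Without TMM the difference in intra-S was -0.08.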

How the results depend on the processing

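The 8 tested members and the named iron genes gave 76 results, each recomputed under up to 17 alternatives: of 1286 values, 1045 kept direction and side of the threshold, 176 lost the call, 33 gained it and 32 changed direction. Calls of members in intra-C (1) became 2 with DESeq2, without a filter and with the robust spread, 3 with only the 2 groups compared, 0 with limma without a filter, and 0 to 3 leaving out a liver. For intra-S (1) they became 2 with DESeq2, 0 with only the 2 groups and with limma without a filter, and 0 to 3 leaving out a liver, and between intra-S and intra-C (0) up to 3. Iron list genes higher in intra-C (16) became 28, and those lower (3) became 8, with only the 2 groups, and 0 to 28 and 0 to 8 leaving out a liver. In intra-S those higher (15) became 8 and those lower (5) became 0 with only the 2 groups, 8 were lower with limma on log2(TPM + 1), and leaving out a liver gave 0 to 30 and 0 to 10. Between intra-S and intra-C (0 and 0) DESeq2 gave 1 higher and 5 lower, and leaving out a liver 0 to 9 and 0 to 10. Over all genes, leaving out intra-S liver 1 or 2 raised the calls in intra-C to 4657 or 4587, in intra-S to 2900 or 5693 and between them to 55 or 2884, and leaving out intra-C liver 1 or 2 lowered those in intra-C to 65 or 61 and in intra-S to 543 or 492. The fitted Hamp2 difference of intra-S from sham ran from -16.95 to -10.23 leaving out a liver, the former with only the liver at 0 counts left.

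Same-numbered livers share only a number (correlations of replicate deviations -0.032, 0.0827 and 0.0428). With a replicate block, 1 iron list gene was lower in intra-C, with the calls of Cebpa and Slc25a37 lost, and 2 in intra-S, with those of Tmprss6, Nfs1 and Glrx5 lost, and the block changed the direction of Hfe (-0.01) and Id2 (0.02) in intra-S. Over all genes it called 673 higher and 259 lower in intra-C and 954 and 553 in intra-S, against 806 and 389, and 1110 and 646.

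None of the values that changed direction was called. Without TMM these were Tfrc (-0.18), Hfe (-0.00) and Fth1 (-0.10) in intra-C and Tfr2 (-0.08), Hfe (-0.26) and Pcbp1 (-0.08) in intra-S. With limma on log2(TPM + 1), log2(TPM + 0.1) and without a filter they were Tfrc (-0.04 in each) and Fth1 (-0.03 in each) in intra-C, and Tfr2 (-0.10 in each), Pcbp1 (-0.10 in each) and Hfe (-0.29, -0.31 and -0.29) in intra-S. With log2(TPM + 0.1) Bmp6 was at -0.07 between intra-S and intra-C. DESeq2 gave -0.01 for Hfe in intra-S. Leaving out a liver gave -0.31 to 0.61 for Tfrc and -0.99 to 0.12 for Id2 in intra-C, -0.25 to 0.22 for Hfe, -1.66 to 0.05 for Bmp6 and -0.51 to 0.50 for Id2 in intra-S, and -0.87 to 0.85 for Bmp6 between intra-S and intra-C. The cause was not tested. Scaling also moved the split of calls: without TMM 569 genes were higher and 801 lower in intra-C, and 838 and 1116 in intra-S; with limma on log2(TPM + 1) 525 and 923, and 686 and 1627. Over all genes, calls in intra-C numbered 1709 and 1110 with DESeq2 and 2548 and 2223 with only the 2 groups, and in intra-S 2065 and 1465, and 276 and 116.

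A call missed in these 2 livers a group does not show equal levels. Depth limited Hamp2 in intra-S, with 0 and 14 counts, and Bmp6, Il6 and Erfe, all under 2 CPM.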
